A study of Rattus norvegicus with 6 samples.

Results

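T, NK and B lymphocyte genes were followed in the liver of rats with fibrosis through 9 genes, chosen by symbol as Ptprc, Cd2, Cd3d, Cd3e, Cd3g, Cd8a, Nkg7, Prf1 and Cd79b from the 19616 genes of the expression table. All 9 were found there, each once. Both groups were male SD rats. Fibrosis in the FL group came from 5 weeks of carbon tetrachloride (CCl4), which damages hepatocytes once they metabolize it. Each week brought 2 intraperitoneal doses at 2 mL/kg, with CCl4 and olive oil mixed in equal parts. The CL group served as the vehicle control, with olive oil only in matching volume. Total RNA of the liver, freed of ribosomal RNA, was sequenced from 3 FL rats (FL2, FL5 and FL12) and 3 CL rats (CL5, CL6 and CL7), with 1 library per rat, and no cells were sorted or counted. Expression was given as FPKM (the fragments of a gene scaled by the length of its transcript and the size of the library). The FPKM of a library summed over genes to 309425, 340467 and 315259 in rats CL5, CL6 and CL7, against 309226, 272350 and 272110 in rats FL2, FL5 and FL12.

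T lymphocytes recognize antigen through a receptor whose signalling chains are the CD3 proteins, with CD4 or CD8 as coreceptor. NK cells and cytotoxic T cells kill target cells by releasing perforin and granzymes from granules, and B lymphocytes signal through CD79A and CD79B, the partners of surface immunoglobulin. A healthy liver holds resident lymphocytes, among them many NK and NKT cells, besides its large population of resident macrophages, the Kupffer cells.

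Of the 9 genes, Ptprc and Cd2 were higher in the FL group, and the other 7 did not pass the test. The call of Ptprc held in every setting tried, and that of Cd2 in 8 of 14. Ptprc, the gene of the leukocyte common antigen CD45, was 2.83-fold higher by the group means and Cd2, an adhesion receptor of T and NK cells, 3.22-fold. The CD3 chains, Cd8a, the granule genes Nkg7 and Prf1, and Cd79b overlapped between the groups. Apart from Ptprc, the mean over the 6 rats lay below 1 FPKM in each gene. A change in the number of cells of a type and one in their RNA per cell cannot be told apart in RNA of whole liver.

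The groups were compared with limma on log2(FPKM + 0.1) over the 14864 genes that averaged 0.1 FPKM or more, a limit that all 9 genes passed, and p-values were adjusted by Benjamini-Hochberg over those genes. A gene was called if it changed at least 2-fold with an adjusted p under 0.05. By this rule 2 of the 9 genes were higher, against 9.29% of all genes tested (1381 genes), and 0 were lower, against 0.935% (139 genes). At an unadjusted p under 0.05, 3 of the 9 were higher (Ptprc, Cd2 and Cd3g), against 31.5% of all genes tested (4675 genes), and 0 lower, against 4.04% (601 genes). Without a limit on the fold change the same 2 genes passed, against 16.9% of all genes higher (2518 genes) and 1.94% lower (288 genes). In these 2 genes every FL rat lay above every CL rat, as in 35.7% of all genes tested (5311 genes).

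The log2 fold change was above 0 in all 9 genes, as in 77.9% of all genes tested (11575 genes), although it turned negative in Cd3d, Cd3e, Nkg7 and Prf1 with quantile normalization and in Prf1 with median scaling. The median over all genes tested was itself 0.29, and it moved to 0.08 with median scaling and to -0.045 with quantile normalization. The 9 genes had a median of 0.77, which is 0.48 above that of all genes. This gap was 0.004 with a pseudocount of 1, 0.16 without FL5, 0.27 with quantile normalization and 0.56 with median scaling. Cd3d and Prf1 lay below the median of all genes. With quantile normalization, 453 genes were called higher and 231 lower, in place of 1381 and 139. The pseudocount shrinks the fold changes of lowly expressed genes, and thus those of 8 of the 9 genes.

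**Figure D1:**
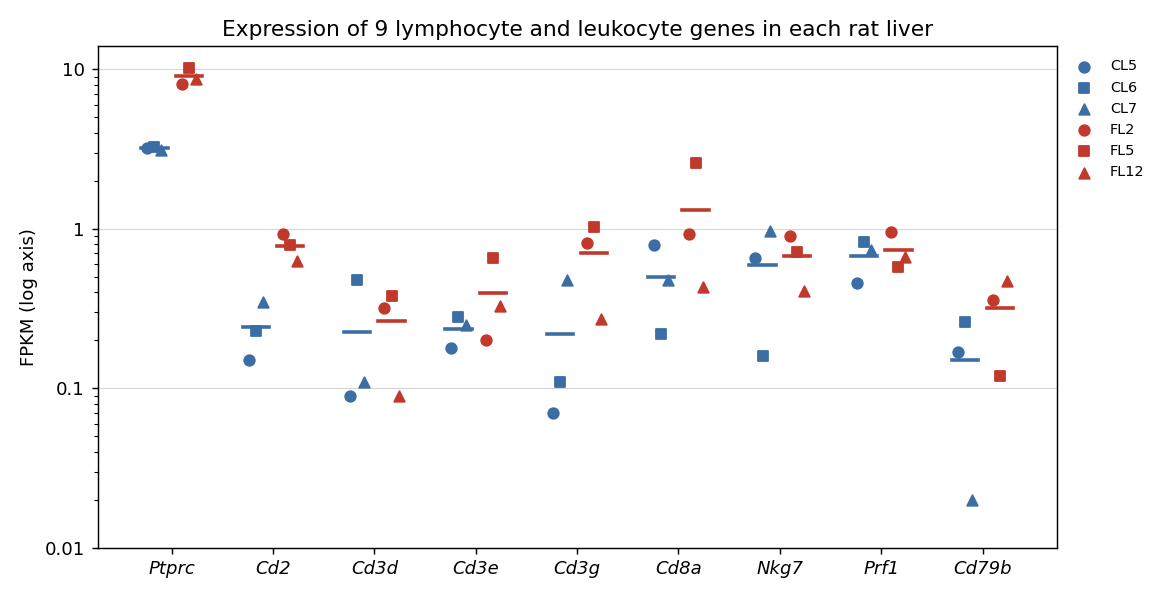
Expression of the 9 genes in each rat, in FPKM on a log axis, with CL rats in blue, FL rats in red and a horizontal line at each group mean (n = 3 rats per group). The FL rats lie above all CL rats in Ptprc (8.12 to 10.19 against 3.12 to 3.25 FPKM) and in Cd2 (0.63 to 0.93 against 0.15 to 0.35 FPKM), and the groups overlap in the other 7 genes.

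Ptprc (ENSRNOG00000000655, chromosome 13) encodes CD45, the membrane tyrosine phosphatase that nucleated blood cells of all lineages carry, and which releases Src-family kinases from inhibition in T and B cells. It read 3.19, 3.25 and 3.12 FPKM in rats CL5, CL6 and CL7, against 8.12, 10.19 and 8.72 FPKM in rats FL2, FL5 and FL12. The CL rats lay close together, the highest 1.04-fold above the lowest, and all FL rats stood far above them, FL5 highest. The group means were 3.19 ± 0.0651 and 9.01 ± 1.07 FPKM (SD, n = 3), the log2 fold change was 1.47 (95% confidence interval 1.16 to 1.77, standard error (SE) 0.13), and the adjusted p from limma was 0.00165. Its call held in each alternative setting, with adjusted p-values from 0.00102 to 0.0134. Of all genes tested, 6.13% had a larger log2 fold change.

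Other genes shared by most leukocytes stood higher with Ptprc. In a list of 26 tested pan-leukocyte genes, 20 were called higher and 0 lower (23 higher and 0 lower at an unadjusted p under 0.05), with a median log2 fold change of 1.34. After median scaling 15 were called, and after quantile normalization 12. Laptm5, a lysosomal membrane protein of blood cells, read 6.89, 6.36 and 5.61 FPKM in rats CL5, CL6 and CL7, against 16.16, 21.78 and 17.60 FPKM in rats FL2, FL5 and FL12. Spn, the sialoglycoprotein CD43, rose from 0.337 ± 0.0416 to 1.79 ± 0.277 FPKM, which is 2.11 on the log2 scale (SE 0.22), with adjusted p-values of 0.00241 to 0.0151 over the settings. Itgal, the alpha chain of the integrin LFA-1, rose from 2.67 ± 0.0458 to 8.25 ± 1.61 FPKM. The lymphocyte GTPase genes Gimap4, Gimap5, Gimap6 and Gimap8 of the same list did not pass. Gimap5 read 0.84, 0.70 and 0.44 FPKM in the CL rats, against 0.95, 0.64 and 0.62 FPKM in the FL rats, so that the groups overlapped.

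Macrophages carry CD45 as well, and part of their markers were higher in the FL rats. Of 21 macrophage-like markers, all of which were tested, 9 were called higher and 0 lower (17 and 0 at an unadjusted p under 0.05), and with a rat left out 7 to 11 were called higher. Their FPKM summed to 278.9, 267.0 and 267.7 in rats CL5, CL6 and CL7, and to 600.8, 693.1 and 434.4 in rats FL2, FL5 and FL12, with C1qc the most abundant and no marker at 0 in any rat. The macrophage antigen gene Cd68 rose from 11.7 ± 0.605 to 38.7 ± 8.70 FPKM, while the Kupffer cell lectin Clec4f read 47.2 ± 3.52 and 50.1 ± 21.1 FPKM. The log2 fold change of the mannose receptor gene Mrc1 was 0.11 and that of Cd14 was -0.70, and neither gene was called. The part of these cells in the level of Ptprc was not tested.

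Cd2 (ENSRNOG00000015821, chromosome 2) read 0.15, 0.23 and 0.35 FPKM in rats CL5, CL6 and CL7, against 0.93, 0.79 and 0.63 FPKM in rats FL2, FL5 and FL12. Every FL rat lay above every CL rat, and FL2 was highest. From 0.243 ± 0.101 to 0.783 ± 0.150 FPKM, its log2 fold change was 1.39 (95% confidence interval 0.66 to 2.13, SE 0.32, adjusted p = 0.0233). The call was lost with median scaling (adjusted p = 0.0517) and quantile normalization (adjusted p = 0.198), without CL5 (0.0685), without CL6 (0.0651) and without FL5 (0.0745), in a range of adjusted p from 0.0225 to 0.198. A pseudocount of 1 left the adjusted p at 0.0225 but the log2 fold change at 0.52, under 2-fold.

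The genes of the CD3 chains, Cd3g, Cd3d and Cd3e, follow one another on chromosome 8 in the RefSeq annotation of GRCr8, and their products assemble with the antigen receptor of T cells. Cd3d (ENSRNOG00000015994) read 0.09, 0.48 and 0.11 FPKM in rats CL5, CL6 and CL7, against 0.32, 0.38 and 0.09 FPKM in rats FL2, FL5 and FL12. CL6 was the highest of all 6 rats and FL12 stood as low as CL5. The log2 fold change was 0.24 (95% confidence interval -1.06 to 1.55, SE 0.57, adjusted p = 0.783), and it became -0.28 with quantile normalization. Leaving out CL5 or FL5 also turned it, to -0.05 and -0.01.

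Cd3e (ENSRNOG00000016069) read 0.18, 0.28 and 0.25 FPKM in rats CL5, CL6 and CL7, against 0.20, 0.66 and 0.33 FPKM in rats FL2, FL5 and FL12. FL5 and FL12 lay above the CL rats, whereas FL2 lay among them. For Cd3e the log2 fold change was 0.47 (95% confidence interval -0.47 to 1.41, SE 0.41, adjusted p = 0.44), and -0.15 with quantile normalization. With a rat left out it ran from 0.105 (without FL5) to 0.78 (without FL2). Cd3g (ENSRNOG00000015945) read 0.07, 0.11 and 0.48 FPKM in rats CL5, CL6 and CL7, against 0.81, 1.03 and 0.27 FPKM in rats FL2, FL5 and FL12. FL2 and FL5 stood above every CL rat, and FL12 lay below CL7. Its log2 fold change of 1.40 was as large as that of Cd2, but with a wider interval (95% confidence interval 0.05 to 2.75, SE 0.59), and the adjusted p was 0.131.

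Within the CL group the 3 chains were not high in the same rat, since Cd3d and Cd3e were highest in CL6 and Cd3g in CL7. Within the FL group all 3 were highest in FL5. The highest CL rat exceeded the lowest 5.33-fold in Cd3d, 1.56-fold in Cd3e and 6.86-fold in Cd3g, against 1.04-fold in Ptprc. The standard deviation within groups on the log2 scale was 0.811, 0.505 and 0.902 in the same order, and 0.119 for Ptprc.

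Among the coreceptors, costimulators and other surface proteins of T cells, 8 of 10 listed genes could be tested, and 4 were called higher (Cd4, Cd8b, Cd28 and Icos) and 0 lower (5 and 0 at an unadjusted p under 0.05). The median log2 fold change of this list was 1.20, and 2 calls were left with quantile normalization and 1 with a pseudocount of 1. Icos, an inducible costimulator of T cells, read 0.24, 0.18 and 0.18 FPKM in rats CL5, CL6 and CL7, against 1.13, 1.16 and 0.86 FPKM in rats FL2, FL5 and FL12. The groups of Icos lay far apart, with a log2 fold change of 1.93 (adjusted p = 0.0049, SE 0.26). Cd4, which macrophages of the rat express besides helper T cells, rose from 8.81 ± 0.973 to 21.1 ± 2.85 FPKM, or by 1.25 on the log2 scale (adjusted p = 0.00308, SE 0.14). Cd28 read 0.157 ± 0.0416 and 0.62 ± 0.218 FPKM, and its call held in 7 of 14 settings. Cd247, the zeta chain that completes the receptor complex, read 0.20, 0.10 and 0.20 FPKM in the CL rats, against 0.31, 0.53 and 0.25 FPKM in the FL rats. Its groups did not overlap, yet the adjusted p was 0.18.

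Downstream of the receptor, 22 of 25 genes of T cell receptor signalling were tested, and 0 were called lower (0 at an unadjusted p under 0.05 as well). Their median log2 fold change was 0.60. Vav1, a guanine nucleotide exchange factor of blood cells, rose from 1.31 ± 0.0907 to 3.71 ± 1.08 FPKM and was called higher in 14 of 15 settings. The kinase gene Lck, which starts signalling at the CD3 chains, read 0.41, 0.60 and 0.64 FPKM in rats CL5, CL6 and CL7, against 0.98, 0.96 and 1.52 FPKM in rats FL2, FL5 and FL12. These groups did not overlap, and the adjusted p of 0.0486 went with a log2 fold change of 0.94 (SE 0.27), under 2-fold. The adjusted p of Lck was 0.111 with median scaling and 0.419 with quantile normalization, where its log2 fold change was 0.353. The kinase gene Zap70, which binds phosphorylated CD3 chains, read 0.17, 0.23 and 0.06 FPKM in the CL rats, against 0.28, 0.34 and 0.12 FPKM in the FL rats. The adaptor gene Lat read 0.79, 1.27 and 0.58 FPKM in the CL rats, against 0.75, 0.46 and 0.56 FPKM in the FL rats. Zap70 and Lat overlapped between the groups and had log2 fold changes of opposite sign, 0.46 and -0.47, although that of Zap70 turned to -0.07 with quantile normalization.

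Of the transcription factors and cytokine receptors of T cells, 14 of 19 were tested, and 5 were called higher (Id2, Il2ra, Il2rg, Il7r and Runx3) and 0 lower (8 and 1 at an unadjusted p under 0.05). The median log2 fold change was 0.80, and quantile normalization left 0 of the 5 calls. A pseudocount of 1 gave 2 calls, and leaving out a rat gave 3 (without FL5) to 5. Il2ra, the alpha chain of the interleukin 2 receptor, read 0.07, 0.06 and 0.09 FPKM in rats CL5, CL6 and CL7, against 0.79, 0.41 and 0.49 FPKM in rats FL2, FL5 and FL12. For Il2ra the log2 fold change was 1.90 (adjusted p = 0.0117, SE 0.35), with adjusted p-values up to 0.0744 over the settings. Foxp3, the factor of regulatory T cells, was too low for the test. It read 0.01 FPKM in CL5 and CL7, was listed at 0 in CL6, and read 0.24, 0.27 and 0.05 FPKM in FL2, FL5 and FL12. In the 5 alternative settings that tested Foxp3 it was called in 0, with adjusted p-values from 0.0568 to 0.223. All 3 FL rats lay above the CL rats in Il2ra and Foxp3, a pattern that 35.7% of all genes tested had.

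Among checkpoint and activation genes, 3 of 10 tested were higher (Cd86, Tnfrsf9 and Tnfrsf18) and 0 lower (6 and 0 at an unadjusted p under 0.05), with a median log2 fold change of 1.10. With median scaling, quantile normalization or a pseudocount of 1, only 1 of the 10 was called. Tnfrsf18 was called in 5 of the 13 settings in which it was tested, and Cd86 in 12 of 15. Tnfrsf9, the costimulatory receptor 4-1BB, rose from 2.17 ± 0.486 to 8.45 ± 3.85 FPKM and was called in each of the 15 settings, with adjusted p-values from 0.00885 to 0.0497. Cd86 is a costimulatory ligand of antigen-presenting cells and not of resting T cells. Ctla4, an inhibitory receptor, read 0.05 and 0.01 FPKM in CL5 and CL7, was listed at 0 in CL6, and read 0.28, 0.42 and 0.12 FPKM in rats FL2, FL5 and FL12. These groups did not overlap, and the adjusted p was 0.0543.

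Cd8a (ENSRNOG00000007178, chromosome 4), the alpha chain of the coreceptor of cytotoxic T cells, which NK cells of the rat also carry, read 0.79, 0.22 and 0.48 FPKM in rats CL5, CL6 and CL7, against 0.93, 2.57 and 0.43 FPKM in rats FL2, FL5 and FL12. FL5 was the highest rat, FL2 came next, and FL12 lay below CL5 and CL7. This gave a log2 fold change of 1.05 (95% confidence interval -0.35 to 2.44, SE 0.61, adjusted p = 0.25). With a rat left out it ran from 0.43 (without FL5) to 1.60 (without FL12). Cd8b, its partner chain, read 0.02, 0.07 and 0.04 FPKM in rats CL5, CL6 and CL7, against 1.02, 0.49 and 0.36 FPKM in rats FL2, FL5 and FL12. The groups were far apart in Cd8b, with FL2 and not FL5 highest, and its log2 fold change was 2.25 (adjusted p = 0.0127, SE 0.43, called in 12 of 14 settings).

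Nkg7 (ENSRNOG00000017749, chromosome 1), a membrane protein of the granules of NK and cytotoxic T cells, read 0.66, 0.16 and 0.97 FPKM in rats CL5, CL6 and CL7, against 0.90, 0.72 and 0.41 FPKM in rats FL2, FL5 and FL12. The highest and the lowest of the 6 rats were both CL rats, CL7 and CL6. The log2 fold change of 0.33 (95% confidence interval -0.90 to 1.56, SE 0.53, adjusted p = 0.683) became -0.285 with quantile normalization and -0.27 without CL6.

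Prf1 (ENSRNOG00000000562, chromosome 20), the pore-forming perforin, read 0.46, 0.83 and 0.74 FPKM in rats CL5, CL6 and CL7, against 0.95, 0.58 and 0.67 FPKM in rats FL2, FL5 and FL12. FL2 was highest and CL5 lowest, with the other 4 rats of both groups in between. The group means of 0.677 ± 0.193 and 0.733 ± 0.193 FPKM differed by less than the spread between rats. On the log2 scale the difference was 0.11 (95% confidence interval -0.57 to 0.79, SE 0.30, adjusted p = 0.812), and it turned to -0.085 with median scaling, -0.48 with quantile normalization, -0.11 without CL5 and -0.07 without FL2. Of all genes tested, 68.3% had a larger log2 fold change. The upper end of the interval, 0.79, lies under a 2-fold increase, which holds for Prf1 alone among the 9 genes. It passed 1, the log2 of 2-fold, without CL6 (1.06), CL7 (1.04) or FL5 (1.02).

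The other genes of cytotoxic granules gave no call. Of 12 tested, 0 were higher and 0 lower by limma, against 9.29% and 0.935% of all genes tested. At an unadjusted p under 0.05, 5 were higher and 0 lower, against 31.5% and 4.04% of all genes tested. The median log2 fold change was 0.38, and limma without trend called 1. Gzma, a granzyme of NK and T cells, read 0.43, 0.35 and 0.42 FPKM in rats CL5, CL6 and CL7, against 0.75, 0.24 and 0.52 FPKM in rats FL2, FL5 and FL12. FL5 was thus the lowest rat in Gzma and the highest in Cd8a. Gzmb was too low for the test and was listed at 0 in CL5, CL6, FL5 and FL12. Gzmk ranged from 0.04 to 0.34 FPKM in the CL rats and from 0 (as listed in FL12) to 0.70 FPKM in FL5. Ctsc, a protease that matures granzymes and is also made by many other cells, read 120 ± 12.5 and 103 ± 5.59 FPKM. By the mean over all rats Ctsc was the most abundant gene of the list (111.4 FPKM, against 107.7 for Lamp1). Among the FL rats alone Lamp1 had the higher mean, 116.5 FPKM.

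NK cell receptors and their adaptors had a median log2 fold change of 0.285 over 17 tested genes, beside 0.289 for all genes, and of -0.22 with quantile normalization. Of these, 4 were called higher (Hcst, Tyrobp, Sh2d1b and Slamf6) and 0 lower (6 and 0 at an unadjusted p under 0.05). The shares over all genes tested were 9.29% called higher and 31.5% higher at an unadjusted p under 0.05. When a rat was left out, 2 to 4 were higher, and 2 with quantile normalization or a pseudocount of 1. Hcst and Tyrobp were called in all 15 settings, Sh2d1b in 9 of 14 and Slamf6 in 3 of 14. Tyrobp, the adaptor DAP12, which macrophages also express, rose from 12.9 ± 2.93 to 39.5 ± 9.96 FPKM. Hcst, the adaptor DAP10, rose from 0.753 ± 0.380 to 2.88 ± 0.256 FPKM. The receptor genes Klrg1 and Cd244 passed the limit on p but not that on the fold change, with log2 fold changes of 0.68 (adjusted p = 0.0374) and 0.87 (adjusted p = 0.0426). Neither Klrg1 nor Cd244 passed the limit on p with median scaling (adjusted p = 0.12 and 0.101) or quantile normalization (adjusted p = 0.441 and 0.55). Ncr1, the NK receptor NKp46, read 0.09, 0.09 and 0.10 FPKM in rats CL5, CL6 and CL7, against 0.08, 0.17 and 0.13 FPKM in rats FL2, FL5 and FL12. Klrd1, the NK receptor CD94, read 0.41, 0.43 and 0.31 FPKM in the CL rats, against 0.13, 0.52 and 0.46 FPKM in the FL rats. Neither of these passed the test, and FL2 was the lowest of the 6 rats in both.

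Cd79b (ENSRNOG00000011917, chromosome 10), a signalling chain of the B cell receptor, read 0.17, 0.26 and 0.02 FPKM in rats CL5, CL6 and CL7, against 0.36, 0.12 and 0.47 FPKM in rats FL2, FL5 and FL12. FL2 and FL12 lay above every CL rat, and FL5 lay below CL5 and CL6. Cd79b had a log2 fold change of 0.77 (95% confidence interval -0.50 to 2.04, SE 0.55, adjusted p = 0.348). It was 0.23 with quantile normalization, and with a rat left out it ran from 0.31 (without CL7) to 1.175 (without FL5). Its partner Cd79a read 0.37, 0.37 and 0.53 FPKM in rats CL5, CL6 and CL7, against 1.25, 1.04 and 0.56 FPKM in rats FL2, FL5 and FL12. The groups of Cd79a did not overlap, with FL12 just above CL7, and its log2 fold change of 0.96 (SE 0.33) had an adjusted p of 0.0782. The B cell antigen gene Ms4a1 was too low for the test, with no rat above 0.27 FPKM.

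Of the components of B cell receptor signalling, 16 of 21 were tested, and 6 were called higher (Blnk, Btk, Syk, Cd37, Cd180 and Dapp1) and 0 lower (12 and 0 at an unadjusted p under 0.05), with a median log2 fold change 0.72 above that of all genes. Blnk, an adaptor that macrophages share with B cells, read 0.22, 0.32 and 0.38 FPKM in rats CL5, CL6 and CL7, against 1.95, 5.27 and 3.60 FPKM in rats FL2, FL5 and FL12. For Blnk the log2 fold change was 3.10 (adjusted p = 0.00339, SE 0.36). Btk and Syk, kinases of both B and myeloid cells, rose from 0.663 ± 0.179 to 1.63 ± 0.132 FPKM and from 1.44 ± 0.206 to 3.74 ± 0.819 FPKM. With quantile normalization Blnk alone of the 6 was called, and a pseudocount of 1 also left 1 call. With a rat left out the list had 3 (without CL7) to 6 calls.

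Of the genes of antibody-producing cells, 3 were far higher in every FL rat than in the CL rats, and FL2 stood apart in them. Igkc, the constant region of the kappa light chain, read 22.03, 10.61 and 12.50 FPKM in rats CL5, CL6 and CL7, against 133.07, 62.89 and 48.59 FPKM in rats FL2, FL5 and FL12. Ighm, the constant region of IgM, read 2.71, 1.84 and 2.02 FPKM in the CL rats, against 26.72, 8.39 and 6.49 FPKM in the FL rats. Igj, the chain that joins IgM and IgA into polymers, read 10.57, 5.58 and 5.22 FPKM in the CL rats, against 52.84, 30.44 and 27.23 FPKM in the FL rats. FL2 was the highest FL rat and CL5 the highest CL rat in all 3 of these genes.

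The log2 fold changes were 2.37 for Igkc (adjusted p = 0.00855, SE 0.39), 2.34 for Ighm (adjusted p = 0.0148, SE 0.47) and 2.37 for Igj (adjusted p = 0.0049, SE 0.32). Igkc and Igj were called in all 15 settings, and Ighm in 12 of 15. Immunoglobulin genes form families of similar sequence that may share reads, so the level of a single one is uncertain. In their list of B cell transcription factors and plasma cell genes, 5 of 14 tested were higher (with Pou2f2 and Prdm1) and 0 lower (8 and 0 at an unadjusted p under 0.05), and the median log2 fold change was 0.95. From 2 to 6 of this list were called with a rat left out. Mzb1, a chaperone of antibody-secreting cells, read 0.34, 0.04 and 0.26 FPKM in the CL rats, against 1.48, 0.46 and 0.47 FPKM in the FL rats, again with FL2 highest and without overlap, and its adjusted p was 0.101. Xbp1, a plasma cell factor that hepatocytes express too, read 120 ± 39.6 and 81.6 ± 20.4 FPKM.

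Among receptors that guide lymphocytes into tissue, 4 of 14 were called higher (among them Cxcr4) and 0 lower, with a median log2 fold change of 0.77. At an unadjusted p under 0.05, 5 were higher and 1 lower. Over all genes tested, 9.29% were called higher, and 31.5% were higher at an unadjusted p under 0.05. Only 1 call was left with median scaling, quantile normalization, a pseudocount of 1 or without CL6, and 2 without CL5, CL7, FL5 or FL12. Cxcr4, the CXCL12 receptor, read 0.11, 0.14 and 0.34 FPKM in rats CL5, CL6 and CL7, against 1.14, 1.61 and 1.80 FPKM in rats FL2, FL5 and FL12, or 2.50 higher on the log2 scale (adjusted p = 0.00503, SE 0.35). The groups did not overlap, and the call held in all 14 settings in which Cxcr4 was tested. S1pr1, which lymphocytes use to leave lymphoid organs and which endothelial cells express strongly, was the most abundant of the list and read 38.6 ± 6.80 and 25.9 ± 3.61 FPKM. Its log2 fold change was -0.57 (adjusted p = 0.0467, SE 0.16), under 2-fold.

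**Figure D2:**
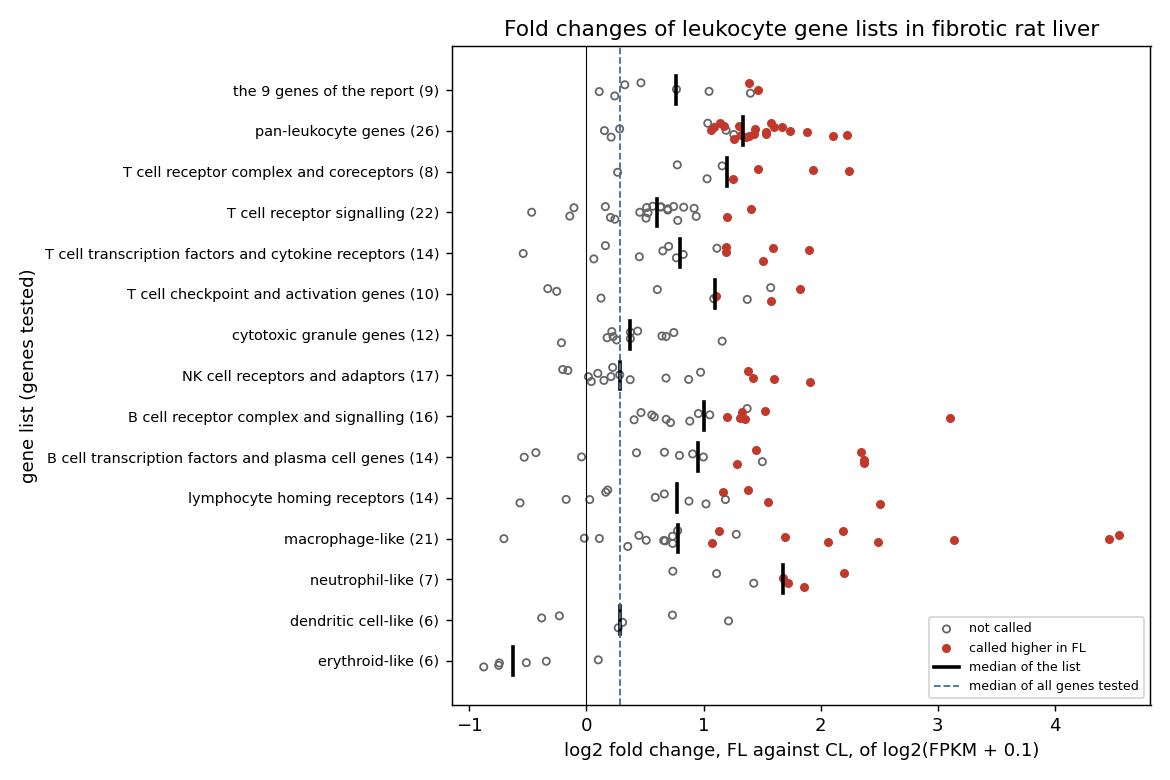
Log2 fold changes between the FL and CL groups (horizontal axis, on log2(FPKM + 0.1)) for the genes of 15 lists, with filled red points for genes called higher and open points for genes not called, a black bar at the median of each list and a dashed line at the median of all genes tested, 0.29. The bar lies at 1.34 for the pan-leukocyte genes, at 0.77 for the 9 genes and at 0.38 for the cytotoxic granule genes, and no gene of these lists was called lower. With quantile normalization the bar of the NK cell list moves to -0.22.

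The rats did not keep one order across the 9 genes. FL5 was the highest FL rat in 5 of them (Ptprc, Cd3d, Cd3e, Cd3g and Cd8a), FL2 in 3 (Cd2, Nkg7 and Prf1) and FL12 in 1 (Cd79b). FL12 was the lowest FL rat in 5 (Cd2, Cd3d, Cd3g, Cd8a and Nkg7). In the CL group CL5 was lowest in 5 (Cd2, Cd3d, Cd3e, Cd3g and Prf1) and CL6 highest in 5 (Ptprc, Cd3d, Cd3e, Prf1 and Cd79b). The relative depth, read from the steps in low values of U6 genes, was 1 in CL5, 0.656 in CL6, 0.84 in CL7, 0.677 in FL2 and FL12, and 0.75 in FL5, so that CL5 was the deepest library.

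By mean over the 6 rats, the order of levels was Ptprc (6.10 FPKM), Cd8a (0.903), Prf1 (0.705), Nkg7 (0.637), Cd2 (0.513), Cd3g (0.462), Cd3e (0.317), Cd3d (0.245) and Cd79b (0.233). FPKM are per length of transcript, so these levels can be set side by side. Ptprc exceeded 76.3% of the genes of the table in mean FPKM, Cd8a 45.0%, and Cd79b 31.7%. Below Ptprc, neighbours in this order overlapped in their values over the rats, and neither group kept it. In the CL group Ptprc was followed by Prf1 (0.677 FPKM), Nkg7, Cd8a, Cd2, Cd3e, Cd3d, Cd3g and Cd79b (0.150), and in the FL group by Cd8a (1.31 FPKM), Cd2, Prf1, Cd3g, Nkg7, Cd3e, Cd79b and Cd3d (0.263).

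Ratios between genes were taken within each rat on log2(FPKM + 0.1), and the added 0.1 weighs on the lowest values. The mean log2 level of the 3 CD3 genes relative to Ptprc was -3.98, -3.22 and -3.20 in CL5, CL6 and CL7, and -4.08, -3.79 and -4.82 in FL2, FL5 and FL12. FL2 and FL12 had the lowest ratios and FL5 lay among the CL rats. The ratio was 0.76 lower in the FL group on the log2 scale (difference -0.76, two-sided exact permutation test, p = 0.2, where 3 rats against 3 allow no p below 0.1). Cd2 relative to Ptprc differed by -0.07 (exact permutation p = 0.8), and this value became 0.22 with a pseudocount of 0.01 and -0.73 with a pseudocount of 1.

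Between the lineage genes, Cd8a relative to the CD3 genes differed by 0.34 (exact permutation p = 0.7), Nkg7 relative to them by -0.37 (exact permutation p = 0.7) and Prf1 relative to them by -0.59 (exact permutation p = 0.2). The last ratio was even in the CL rats (1.43, 1.37 and 1.27 in CL5, CL6 and CL7) and read 1.11, -0.13 and 1.31 in FL2, FL5 and FL12. FL5 alone lay far from the rest there. Cd79b differed by 0.07 relative to the CD3 genes (exact permutation p = 1) and by -0.70 relative to Ptprc (exact permutation p = 0.4). Prf1 relative to Nkg7 differed by -0.22 (exact permutation p = 1) and Cd8a relative to Cd4 by -0.20 (exact permutation p = 0.9). The sign of 6 of the 9 ratios changed in at least 1 alternative. In the main setting the groups overlapped in all 9 ratios, and the Benjamini-Hochberg adjusted p over the 9 was 0.9 or 1 in each. A pseudocount of 1 exceeds nearly all values of the CD3 genes, Cd2 and Cd79b and flattens them, so that their ratios to Ptprc (differences of -1.03, -0.73 and -1.06, without overlap) mostly repeat the rise of Ptprc, and nothing is read from them. With a rat left out, the groups did not overlap in 2 of the 9 ratios without CL5, CL6 or CL7, in 1 without FL5 or FL12 and in 0 without FL2.

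Genes of similar pattern were sought among 10159 protein-coding genes that averaged 1 FPKM or more, by the root mean square difference of centred log2 values over the 6 rats. Nearest to Ptprc were Hcls1 (0.070), which encodes a substrate of kinases in blood cells, Slc20a1 (0.076), Laptm5 (0.089), Unc93b1 (0.089) and Cyth4 (0.091). Hcls1 read 1.94, 1.85 and 1.94 FPKM in rats CL5, CL6 and CL7, against 5.23, 5.74 and 5.07 FPKM in rats FL2, FL5 and FL12, a log2 fold change of 1.44 beside 1.47 for Ptprc. The phosphate transporter gene Slc20a1 read 4.23, 3.96 and 3.60 FPKM in the CL rats, against 9.53, 11.89 and 11.33 FPKM in the FL rats.

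For the other 3 profiles the nearest genes were farther away. The genes of these profiles averaged below 1 FPKM, under the limit for the candidates, and whether such matches exceed chance was not tested. The mean of the CD3 genes was nearest to Cd200r1l (0.155), followed by Ptpn18 (0.197), Tmsb4x (0.203), Hs6st1 (0.235) and Rab11fip5 (0.237). Cd200r1l read 1.35, 2.04 and 1.81 FPKM in rats CL5, CL6 and CL7, against 3.36, 4.21 and 1.60 FPKM in rats FL2, FL5 and FL12, with FL5 highest and CL5 lowest as in the CD3 mean. Nkg7 was nearest to RT1-N2 (0.233), a gene of the rat major histocompatibility complex, and then to Apof (0.256), Tctn1 (0.369), Zfp954 (0.375) and Arl15 (0.380). Apof, an apolipoprotein gene, read 140.99, 41.14 and 251.21 FPKM in the CL rats, against 144.46, 112.86 and 82.68 FPKM in the FL rats, lowest in CL6 and highest in CL7 like Nkg7. Cd79b was nearest to Prkcdbp (0.264), Clic2 (0.283), Ces2i (0.290), Ifitm3 (0.315) and LOC690468 (0.323).

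Markers of other cells that the liver could hold differed between the rats as well. Of 6 tested erythroid-like markers 0 were called by limma (0 higher and 1 lower at an unadjusted p under 0.05), and the 8 in the table summed to 92.4, 163.5 and 116.1 FPKM in rats CL5, CL6 and CL7, and to 130.9, 50.1 and 52.3 FPKM in rats FL2, FL5 and FL12, with Hbb the most abundant. Without FL2, 3 of the 6 were called lower (Alas2, Hba1 and Hbb). FL2 thus held more haemoglobin RNA than FL5 and FL12. It was also the FL rat with the most immunoglobulin RNA and the highest Cd2, Nkg7 and Prf1, but the lowest of all rats in Ncr1 and Klrd1. CL6, with the highest erythroid-like sum of all rats, was the lowest of all in Igkc, Ighm and Nkg7 and the highest CL rat in Prf1. The part of blood in these values was not tested.

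Neutrophil-like markers were called higher in 4 of 7 tested and lower in 0 (5 and 0 at an unadjusted p under 0.05), and all 10 summed to 1.02, 1.44 and 1.38 FPKM in rats CL5, CL6 and CL7, and to 7.57, 3.66 and 5.96 FPKM in rats FL2, FL5 and FL12. Of the 4 calls, 1 was left with median scaling, 1 with a pseudocount of 1 and 0 with quantile normalization, and leaving out a rat gave 1 or 2. S100a8 was the most abundant. The granule genes Mpo and Elane, listed at 0 in every CL rat, were too low for the test. Without the filter on low values their log2 fold changes were 0.314 and 0.162, and neither was called (adjusted p = 0.362 and 0.588). Mast cell-like markers were higher in 2 of 7 tested (4 higher and 0 lower at an unadjusted p under 0.05, sums of 2.69, 2.60 and 2.69 against 5.86, 5.67 and 6.47 FPKM), and in 1 with either scaling, a pseudocount of 1 or without CL5, CL7, FL5 or FL12. Platelet-like markers were higher in 1 of 2 and dendritic cell-like markers in 0 of 6 (2 higher at an unadjusted p under 0.05). Beside these counts stand 9.29% of all genes tested called higher and 31.5% higher at an unadjusted p under 0.05. Stellate cell-like markers were higher in 4 of 9, cycling cell markers in 2 of 10, cholangiocyte-like markers in 1 of 6 and endothelial-like markers in 1 of 7 (at an unadjusted p under 0.05, 7, 9, 2 and 3 higher in this order and 0 lower in each). The count for cycling cells was 9 without FL2 but 0 without CL5, CL7, FL5 or FL12 and 0 with quantile normalization, and that for stellate cell-like markers stayed at 4 or 5. The count for cholangiocyte-like markers was 0 without CL7 and 2 without FL2. The endothelial-like call was lost with either scaling, a pseudocount of 1, limma without trend, and on leaving out any rat other than FL2. Hepatocyte-like markers had 0 of 11 called (1 higher at an unadjusted p under 0.05), and their sums, most of it Alb, ran from 54409 to 57202 FPKM in the CL rats and from 49356 to 54326 FPKM in the FL rats.

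Promoter sequences (250 bases before to 50 bases after the start of a gene, RefSeq, GRCr8) were matched for 8 of the 9 genes, all but Cd79b. Core letters of motifs bound by factors of blood cells were searched on both strands, and these letters were chosen after the sequences had been seen. The ETS letters AGGAAGT occurred in Ptprc, Cd3e and Prf1, against 8.41% of all 33469 promoters of this length. The RUNX letters TGTGGT occurred in Cd2, Nkg7 and Prf1 (17.3% of all promoters), the E-box letters CAGCTG in Cd2, Cd3g and Prf1 (15.1%), and the GATA letters AGATAA in 0 of the 8 (11.6%). In Prf1 the first ETS match lies directly beside the E-box letters without overlapping them.

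The stretches before the gene start that hold the ETS letters are shown, since they occur both in Ptprc, which was called higher, and in Cd3e and Prf1, which were not. The sequences are from RefSeq and run 5′ to 3′ along the strand of the gene, and capitals mark AGGAAGT or its reverse complement ACTTCCT. Ptprc lies at chr13:52259782-52259889 on the minus strand, Prf1 at chr20:29788812-29788958 on the plus strand and Cd3e at chr8:54211771-54211813 on the minus strand (GRCr8).
Ptprc: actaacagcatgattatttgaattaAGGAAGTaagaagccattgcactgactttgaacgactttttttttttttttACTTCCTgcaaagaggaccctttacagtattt
Prf1: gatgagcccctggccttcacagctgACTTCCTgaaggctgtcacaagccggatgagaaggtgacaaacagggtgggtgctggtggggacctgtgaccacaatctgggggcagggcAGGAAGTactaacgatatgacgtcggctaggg
Cd3e: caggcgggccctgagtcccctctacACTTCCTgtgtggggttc
Ptprc and Prf1 each held 2 matches in opposite orientation, and Cd3e held 1, from 12 to 18 bases before its start. A match of letters is a description of the sequence only.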

How the data were processed

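RNA of the liver of 3 FL and 3 CL rats was sequenced, 1 library each. After trimming (FASTX-Toolkit 0.0.13) and alignment (TopHat2), the authors turned unique reads per gene into FPKM, which they deposited with 2 decimals. GRCh38 is named as the genome, whereas the gene identifiers are those of Ensembl for the rat, and the annotation release is not given in the sources used here. The authors tested counts with edgeR. Since FPKM are not counts, log2(FPKM + 0.1) was tested here with limma 3.58.1 (R 4.3.3), with the trend option and without scaling between rats, over genes that averaged 0.1 FPKM or more. The procedure was tested on simulated data. Ratios were compared by exact permutation tests (scipy 1.17.1, with numpy 2.4.6 and pandas 2.3.3 in Python 3.11.15, and matplotlib 3.10.9 for plots). The genes named were the 9 members, genes of the fixed lists of pathways and cell markers, and the 5 protein-coding genes nearest in pattern to each of 4 profiles. The members and lists were chosen with earlier results of these data known. Of the 329 list entries, 295 were matched by symbol, and the others, among them the constant genes of the T cell receptor, were not analysed here. Some list genes are not reported here by name. A further 2 columns of values, whose names no sample carries, were not used. The paper gives a lower limit for the clean reads, but does not say whether it holds for each library. The absolute depth of each library is thus unknown, so errors are the spread over 3 rats. Identical values above 0 were shared by 0.99% to 2.87% of genes between 2 rats, and no library appeared as a duplicate. The alternatives were other pseudocounts, filters, scalings and limma priors, no limit on the fold change, and leaving out each rat.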

Additional observations from a re-analysis of the deposited data

How the results depend on the processing

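Under the alternatives Ptprc kept its call, and the number of the 9 genes called lower stayed at 0. The number called higher fell from 2 to 1 with a pseudocount of 1, a mean of at least 1 FPKM (where Cd2 was not tested), median scaling and quantile normalization, and ran from 1 to 2 with a rat left out. Over all genes, the number higher was 462 with a pseudocount of 1, 854 with a mean of at least 1 FPKM, 826 with median scaling, 453 with quantile normalization and 2518 without a limit on the fold change, and ran from 740 (without CL7) to 1831 (without FL2). The number lower was 72 with a pseudocount of 1, 231 with quantile normalization and 288 without a limit on the fold change, and ran from 81 (without CL6 or CL7) to 160 (without FL2).

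The log2 fold change turned negative with quantile normalization in Cd3d (-0.28), Cd3e (-0.15), Nkg7 (-0.285) and Prf1 (-0.48), and with median scaling in Prf1 (-0.085). With a rat left out it ran from -0.05 to 0.76 in Cd3d, from -0.27 to 0.75 in Nkg7 and from -0.11 to 0.26 in Prf1, and for Cd2 from 1.18 to 1.61. Among differences of log2 ratios, Cd79b to the CD3 genes became -0.036 with a pseudocount of 1, and Cd2 to Ptprc 0.22 with a pseudocount of 0.01. With a pseudocount of 1, which flattens the lower genes, the groups did not overlap in the ratios of Cd2 (-0.73), the CD3 genes (-1.03) and Cd79b (-1.06) to Ptprc. Without CL5, CL6 or CL7 they did not overlap in 2 ratios, and without FL5 or FL12 in 1. With a rat left out, Cd79b to the CD3 genes ran from -0.53 to 0.78 and Cd2 to Ptprc from -0.28 to 0.16, and 4 more changed sign: Cd8a to the CD3 genes (-0.18 to 0.95), Nkg7 to the CD3 genes (-1.11 to 0.056), Prf1 to Nkg7 (-0.61 to 0.53) and Cd8a to Cd4 (-0.73 to 0.36). The remaining ratios kept their sign with a rat left out, but their size moved. The CD3 genes to Ptprc ran from -1.018 to -0.466, Cd79b to Ptprc from -1.14 to -0.199 and Prf1 to the CD3 genes from -0.864 to -0.146. The causes were not tested. A mean of at least 1 FPKM left only Ptprc of the 9 genes and 5 of 17 NK cell genes. Over the other alternatives the median log2 fold change ran from 0.19 to 1.19 for the 9 genes, from 0.95 to 1.47 for the pan-leukocyte genes, from 0.06 to 0.66 for the cytotoxic granule genes and from -0.22 to 0.57 for the NK cell genes. The gap between the median of the 9 genes and that of all genes ran from 0.004 (pseudocount of 1) to 0.88 (pseudocount of 0.01). With a rat left out, the number called higher ran from 1 to 2 among neutrophil-like markers, from 0 to 9 among cycling cell markers and from 1 to 4 among homing receptors, and the number of erythroid-like markers called lower from 0 to 3.

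No paired analysis was possible because the groups share only the number 5, and rats are separate animals. With 3 rats per group, no exact test of a ratio can pass the threshold, and the 8 genes with a mean below 1 FPKM come from few reads, so single reads can move them. A p above the threshold does not show that a gene was equal in both groups.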
